A study of Mus musculus with 52 samples.

Results

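In the suprachiasmatic nucleus (SCN) of the mouse, the paired hypothalamic nucleus that holds the circadian pacemaker, 67 of 21999 measured genes formed a late group. After 3 h of light they were higher than in dark replicates 1 and 2 at circadian time (CT) 17 and than after 1 h of light. The other dark libraries had no part in that choice, and some late genes were not above them. These late genes were chosen from the RPKM table (reads scaled to gene length and library size) by 1 rule. The mean of both 3 h libraries had to be at least 1 RPKM and at least 1.4 times the mean of dark replicates 1 and 2 at CT17. It also had to be at least 1.4 times the mean of both 1 h libraries, and each 3 h value had to lie above all of these low values. The values were met by 80 genes, of which 13 were left out by name, Vgf, Nptx1, Srxn1 and Rora among them. The dark libraries of the rule belong to label batch 1 and the 1 h and 3 h libraries to batch 2. The differences between 3 h and those low groups therefore chose the genes and are given as a description, with no test.

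The mice were male and 11 to 12 weeks old, and each RNA library pooled 6 pairs of SCN. In the light-pulse experiment all mice were wild type. Dark SCN were taken at CT17 (4 libraries) and CT23 (2 libraries). Lit SCN were taken after light that began at CT17 and lasted 0.5 h (4 libraries) or 1 h, 3 h or 6 h (a pair of libraries at each). No dark SCN were taken when the light of 0.5 h, 1 h or 3 h ended. Light and circadian time therefore cannot be told apart where 3 h is set against CT17 dark or against 1 h. In the Npas4 experiment, SCN of Npas4 null mice and of wild-type littermates were compared in the dark and after light of 1 h from CT17, with 3 libraries in each of the 4 groups. The sources used here do not give the deleted stretch of Npas4. ChIP-seq of wild-type SCN in the dark and after 1 h of light gave 1 peak list for each histone mark and lighting.

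Light in the subjective night reaches the SCN through the retinohypothalamic tract, whose glutamate release raises calcium and activates kinases and the factor CREB. A first wave of immediate-early genes encodes transcription factors, such as AP-1, EGR and NR4A proteins and NPAS4, and needs no new protein. A second wave of late genes follows, many of them effectors of signalling, synapses and metabolism, and its timing is often set by the products of the first. Bulk tissue mixes all SCN cells and some of their surroundings, so fewer cells of a type and less RNA per cell cannot be told apart.

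Light-pulse libraries without the suffix s in their name held 12477382 to 15369985 counted reads, those with it (at CT17 and 0.5 h) 27413860 to 30149286, and libraries of the Npas4 experiment 26638939 to 32097975. No pair of libraries agreed within counting noise, but libraries with and without the suffix may share a pool of tissue, and p-values measure only the spread between these libraries. SCN markers such as Vip, Avp and Six6 were detected in every group. The 0.5 h replicate 2 stood apart, with 8 meningeal fibroblast markers summing to 177.8 RPKM against 12.4 to 21.5 RPKM in the 1 h, 3 h, 6 h and CT23 libraries, and with Gjb2 at 24.8 RPKM and Cnn1 at 2.26 RPKM in it. Next came 0.5 h replicate 2s (82.2 RPKM), null dark replicate 1 (63.3 RPKM) and CT17 replicate 2s (49.995 RPKM). Npas4 itself gave 236 to 250 counts in wild-type dark and 146 to 287 in null dark libraries, and 327 to 423 in wild-type and 127 to 236 in null libraries after light, so that the gene-level count separated the genotypes after light and not in the dark.

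Most late genes were modest in both level and fold. At 3 h their mean level ran from 1.02 to 44.2 RPKM with a median of 4.00 RPKM, and 17 of 67 were under 2 RPKM. The ratio of 3 h to CT17 dark had a median of 1.69 and that of 3 h to 1 h a median of 1.59, and 12 genes were at least 2 times the higher of both. Depth set the precision here: the median late gene had 202 counts in a 3 h library, but the defensin gene Defb25 had 6.5 and Dbil5 had 8.5. Near the threshold, Tnfrsf12a, Tmem200a and Ehd3 stood at ratios of 1.4001, 1.4003 and 1.4029 to the higher low group, whereas Prex1, Nxph4 and Asphd1 just missed it at 1.394, 1.386 and 1.383. Both 3 h libraries lay above both CT17 libraries of suffix s for 62 of 67. The exceptions were Fam150b, Gjb2, Gm16314, Hr and Nrbf2. The rule had chosen these 3 h values to be high, and the libraries of suffix s may share pools with its dark libraries. That count is therefore a description and not an independent check, and it was not taken over all genes.

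**Figure D1:**
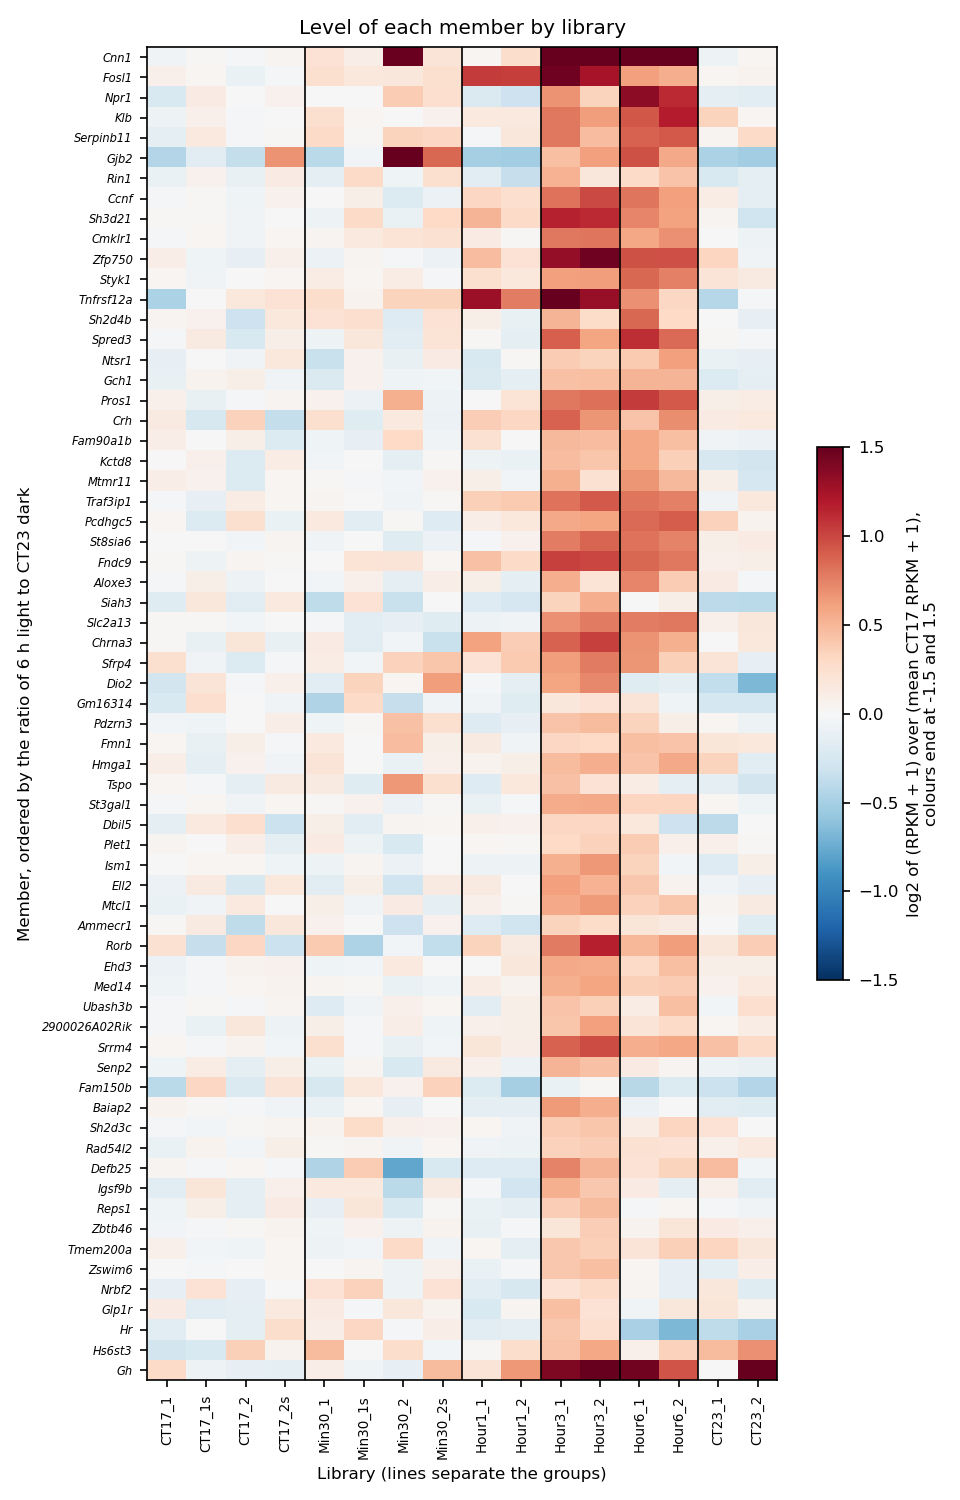
Level of the late genes (rows; 1 of the 67 left out) in each light-pulse library (columns), as the log2 of RPKM + 1 over the mean CT17 dark RPKM + 1, with red above and blue below. The 3 h columns are red by the choice of genes; the 6 h columns mostly fade from top to bottom, because genes are ordered by the ratio of 6 h light to CT23 dark, with Gh last because of 1 CT23 library.

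Cnn1, the gene of calponin, an actin-binding protein of smooth muscle, had the highest ratio of 3 h to the low groups, 12.9. Its level was 0.13 to 0.20 RPKM in the 4 CT17 libraries, 0.19 and 0.40 RPKM at 1 h, 3.10 and 4.55 RPKM at 3 h, 3.92 and 4.09 RPKM at 6 h, and 0.10 and 0.19 RPKM at CT23. It was near the floor in every dark library and stayed at its 3 h level until 6 h. Gh, the growth hormone gene of the pituitary, followed with a ratio of 7.63, but was 2.11 and 7.03 RPKM at 3 h and 0.19 and 21.2 RPKM in the dark at CT23. Its highest values thus lay in single libraries of several groups, including 26.7 RPKM in wild-type dark replicate 3 of the Npas4 experiment.

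Receptors followed. Klb encodes beta-klotho, a co-receptor for an endocrine fibroblast growth factor. It was 0.18 to 0.31 RPKM at CT17, 1.15 and 0.91 RPKM at 3 h, 1.36 and 1.80 RPKM at 6 h, and 0.56 and 0.27 RPKM at CT23. Its 6 h libraries lay above its 3 h libraries, and both above all dark ones. Npr1, the natriuretic peptide receptor that makes cyclic GMP, was 0.68 to 1.14 RPKM at CT17, 0.69 and 0.58 RPKM at 1 h, 2.13 and 1.47 RPKM at 3 h, 3.97 and 3.28 RPKM at 6 h, and 0.77 and 0.76 RPKM at CT23. Of all 67, it had the highest ratio of 6 h to 3 h, 2.01. Cmklr1, the receptor for chemerin, was 0.75 to 0.86 RPKM at CT17, 2.13 and 2.17 RPKM at 3 h, and 1.71 and 1.92 RPKM at 6 h.

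Among transcription factors, Zfp750, a zinc-finger factor best known from the epidermis, was 0.97 to 1.31 RPKM at CT17, 1.96 and 1.5 RPKM at 1 h, 4.38 and 4.905 RPKM at 3 h, and 3.18 and 3.19 RPKM at 6 h. Fosl1 encodes the AP-1 subunit FRA-1. It was at most 0.13 RPKM at CT17, already 1.22 and 1.204 RPKM at 1 h, then 1.94 and 1.53 RPKM at 3 h and 0.64 and 0.56 RPKM at 6 h. Fosl1 and Tnfrsf12a, the receptor for the cytokine TWEAK, thus met the rule after most of their rise: their 1 h means were 18.3 and 3.25 times the dark mean of the rule. In all, 14 of 67 had a 1 h mean at least 1.2 times that dark mean. Rorb, a nuclear receptor that is both a clock-linked gene and an SCN marker, was 9.59 and 10.2 RPKM in CT17 replicates 1 and 2 but 6.08 and 6.22 RPKM in the libraries of suffix s, and 14.5 and 19.3 RPKM at 3 h.

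Other late genes with the highest ratios were Serpinb11 (2.64), Defb25 (2.19), Gjb2 (2.09), Dio2 (2.08), Rin1 (2.08) and Pdzrn3 (2.07). Dio2, the deiodinase that turns thyroxine into active thyroid hormone, was 1.26 to 2.12 RPKM at CT17, 3.13 and 3.49 RPKM at 3 h, 1.42 and 1.49 RPKM at 6 h, and 1.12 and 0.72 RPKM at CT23. Its group mean was highest at 3 h. Both 6 h values lay within the CT17 range but above both values at CT23, the same circadian time, a difference that was not called. Gjb2, a connexin gene of the meninges among other tissues, reached 10.2 and 11.5 RPKM at 3 h and 14.9 and 11.1 RPKM at 6 h, but also 12.1 RPKM in CT17 replicate 2s. That dark library had a meningeal marker sum of 49.995 RPKM, against 12.4 to 18.6 RPKM at 3 h; the part of meningeal tissue in the Gjb2 values was not tested.

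The most abundant late genes changed by smaller ratios. At 3 h, Fndc9 averaged 44.2 RPKM, the endocytic recycling gene Ehd3 38.7 RPKM, the proton-coupled inositol transporter gene Slc2a13 38.5 RPKM and the SUMO protease gene Senp2 31.6 RPKM. The elongation factor gene Ell2 (19.7 RPKM), Reps1 (19.7 RPKM), the Ras-MAPK inhibitor gene Spred3 (19.6 RPKM), the Mediator subunit gene Med14 (19.2 RPKM) and Rorb (16.9 RPKM) came next. Slc2a13 showed a tight step: 22.2 to 23.02 RPKM at CT17, 20 to 22.5 RPKM at 0.5 h, 21.6 and 21.95 RPKM at 1 h, 37.1 and 39.8 RPKM at 3 h, 39.4 and 40.3 RPKM at 6 h, and 24.0 and 25.7 RPKM at CT23. No light library of 3 h or 6 h overlapped an earlier or dark one.

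**Figure D2:**
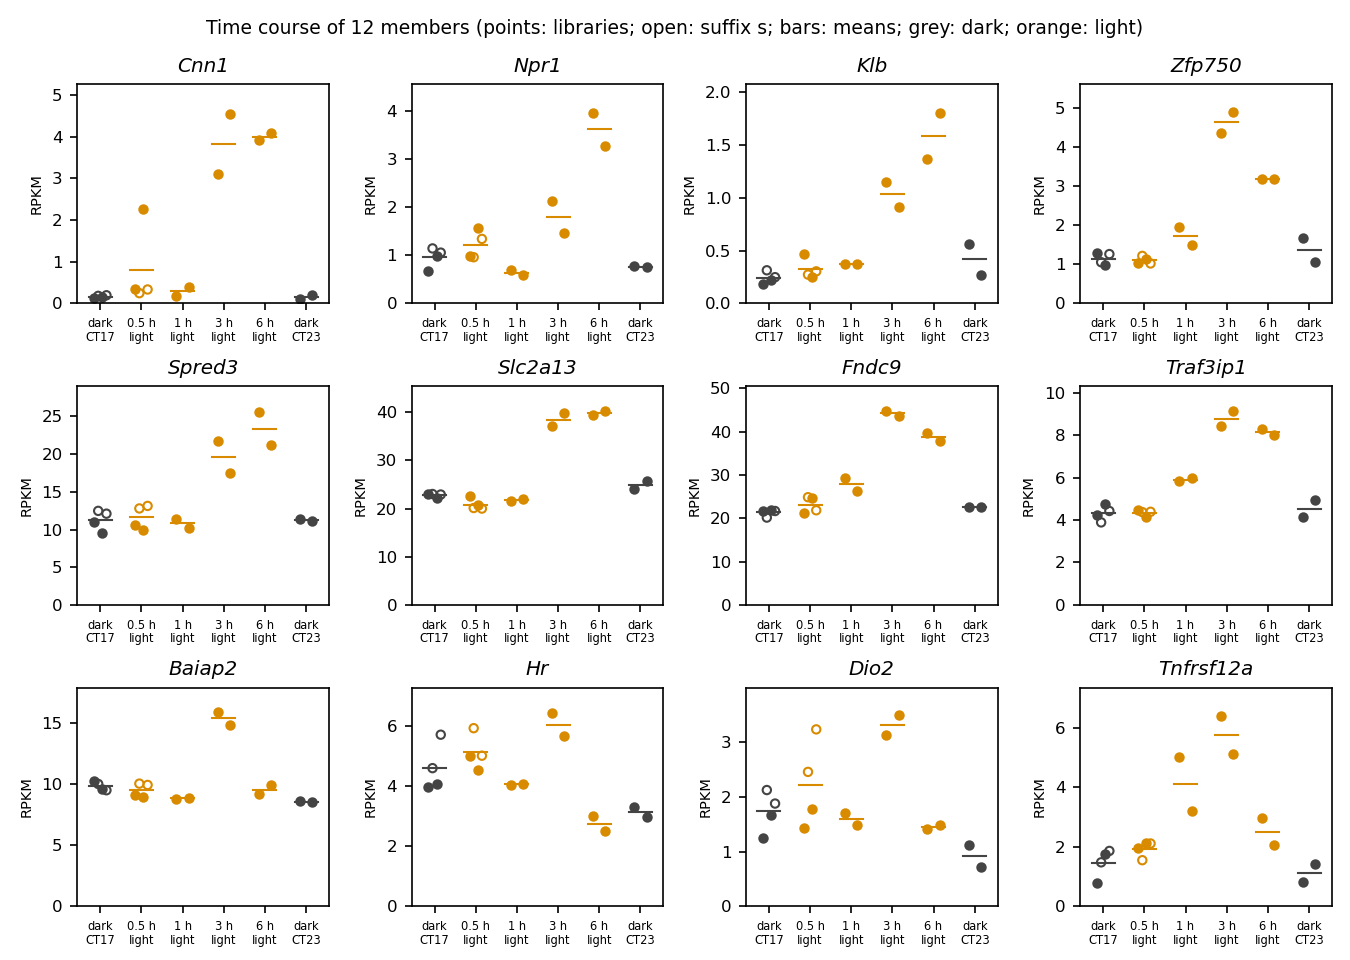
RPKM of 12 late genes in each light-pulse library (points; open points, suffix s; bars, group means; grey, dark; orange, light), on linear axes that start at 0. Cnn1, Npr1, Klb, Spred3 and Slc2a13 were as high or higher at 6 h as at 3 h, whereas Baiap2, Hr, Dio2 and Tnfrsf12a were lower at 6 h than at 3 h.

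Profiles over the 6 group means, taken as log2 of RPKM + 1, were most like the median profile of the late genes for the sialyltransferase gene St3gal1 (Pearson r = 0.993), Cmklr1 (0.987), the microtubule gene Mtcl1 (0.983), Ehd3 (0.980) and Med14 (0.967). That median profile lay between -0.17 and -0.13 at CT17, 0.5 h, 1 h and CT23 relative to its own mean, at 0.37 at 3 h and at 0.20 at 6 h. The 6 points share libraries with the rule, so these correlations only describe the typical gene.

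The comparison of 6 h of light with the dark at CT23, the same circadian time, set against each other no libraries that the rule had used and asked whether the late genes were still higher when light went on. Of 65 late genes tested by edgeR's quasi-likelihood test, 20 rose and none fell, which is 30.8% where 0.723% of all 14524 tested genes rose and 0.282% fell. At an unadjusted p under 0.05, 40 were higher and 1 lower, and by DESeq2 23 were higher and none lower. The median log2 difference of the 65 was 0.60, against 0.01 over all genes. Dbil5 and Defb25 did not pass the low-count filter. The fit took its spread and its batch term from all 16 libraries, those of the rule included; fitted on the 4 compared libraries alone, 27 rose.

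In RPKM, both 6 h libraries lay above both CT23 libraries for 51 of all 67 late genes (76.1%), where 15.9% of the 12783 genes with at least 1 RPKM in a group did so, and below both for 1, the sulfotransferase gene Hs6st3 (2.12 and 2.75 RPKM at 6 h against 3.12 and 3.78 RPKM at CT23). The ratio of 6 h to CT23 had a median of 1.58 (background 1.00), whereas that of CT23 to CT17, both dark, had a median of 1.01 (background 0.97). CT23 means were above CT17 means in 34 of 67. At 6 h, 20 of 67 had a mean above their 3 h mean, and the median ratio of 6 h to 3 h was 0.85.

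The largest rises at 6 h were those of Cnn1, by 5.29 ± 0.86 in log2 (estimate ± SE; edgeR adjusted p = 0.00637), Npr1, by 2.20 ± 0.28 (adjusted p = 0.000713), and Klb, by 2.06 ± 0.36 (adjusted p = 0.00943). Cnn1 rested on 3 and 7 counts at CT23 against 127 and 142 at 6 h, a ratio of 26.4 per counted read (95% interval 14.1 to 55.7, exact binomial, which covers counting error only). The log2 difference of Cnn1 was 4.63 without the 0.5 h library that stood apart in meningeal markers, and 4.34 within label batch 2.

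Of 13 late genes of receptors and intracellular signalling, 5 rose at 6 h. Besides Npr1 and Klb these were Styk1, a kinase-like membrane protein gene, by 1.26 ± 0.16 in log2, Cmklr1 by 1.21 ± 0.19 and Spred3 by 0.95 ± 0.12. Chrna3, a nicotinic acetylcholine receptor subunit, had 0.78 ± 0.19 (adjusted p = 0.0722) and Ntsr1, a neurotensin receptor, 0.84 ± 0.21 (adjusted p = 0.0861); both passed by DESeq2, with adjusted p of 0.0246 and 0.043. The incretin receptor gene Glp1r was 2.30 and 1.81 RPKM at 3 h and had a log2 difference of -0.0037 ± 0.28 at 6 h.

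Of 7 genes of channels, transporters and membrane proteins, 4 rose, among them Pcdhgc5, a gamma-protocadherin that shares its last exons with the other genes of the cluster, by 1.05 ± 0.11 in log2, Kctd8, an auxiliary subunit of GABA-B receptors, by 0.83 ± 0.11, and Slc2a13 by 0.70 ± 0.09. Reads on exons that gamma-protocadherins share cannot be assigned to Pcdhgc5 with certainty. Baiap2, a scaffold of the postsynaptic density, was 14.8 and 15.9 RPKM at 3 h and 9.18 and 9.87 RPKM at 6 h, with a log2 difference of 0.15 ± 0.08 from CT23 that did not pass (adjusted p = 0.556).

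Of 7 metabolic and modifying enzymes, 3 rose. Gch1, which starts the synthesis of tetrahydrobiopterin, the cofactor of monoamine and nitric oxide synthesis, rose by 0.92 ± 0.16 in log2, from 1.65 and 1.76 RPKM to 3.34 in both 6 h libraries. The lipid phosphatase family gene Mtmr11 rose by 0.91 ± 0.18 and the sialyltransferase gene St8sia6 by 0.75 ± 0.08, whereas St3gal1 had 0.42 ± 0.10 (adjusted p = 0.0547) and Dio2 0.46 ± 0.29 (adjusted p = 0.645). Of 10 cytoskeletal, traffic and cell cycle genes, Cnn1, the cyclin F gene Ccnf (1.22 ± 0.24) and Traf3ip1, a gene of intraflagellar transport (0.85 ± 0.12), rose.

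Of 12 genes of transcription, chromatin and RNA, 1 rose, Zfp750, by 1.29 ± 0.22 in log2 (adjusted p = 0.00788). Rorb had 0.54 ± 0.23 (adjusted p = 0.412), and the nuclear receptor corepressor gene Hr -0.28 ± 0.15 (adjusted p = 0.575), with 5.65 and 6.42 RPKM at 3 h and 2.51 and 3.01 RPKM at 6 h. Fosl1 had 2.45 ± 0.58 (adjusted p = 0.0656), on 2 and 3 counts at CT23 against 14 and 15 at 6 h. Srrm4, which drives neuronal splicing of microexons, was 14.5 and 15.5 RPKM at 3 h and 11.3 and 11.5 RPKM at 6 h, against 9.22 and 10.4 RPKM at CT23, with 0.28 ± 0.10 (adjusted p = 0.303).

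Among secreted proteins Pros1, the gene of the anticoagulant protein S, which is also a ligand of TAM receptors, was the 1 gene of 7 that rose, by 1.08 ± 0.16 in log2, from 8.02 and 8.12 RPKM to 16.5 and 15.0 RPKM. Crh, the corticotropin-releasing hormone gene of the neighbouring paraventricular nucleus, had 1.49 ± 0.46 (adjusted p = 0.187). In the remaining group, Sh3d21 rose by 1.16 ± 0.25, Fam90a1b by 1.06 ± 0.22 and Fndc9 by 0.79 ± 0.09. The roles were assigned by hand with these results known, so the counts per role only order the genes.

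**Figure D3:**
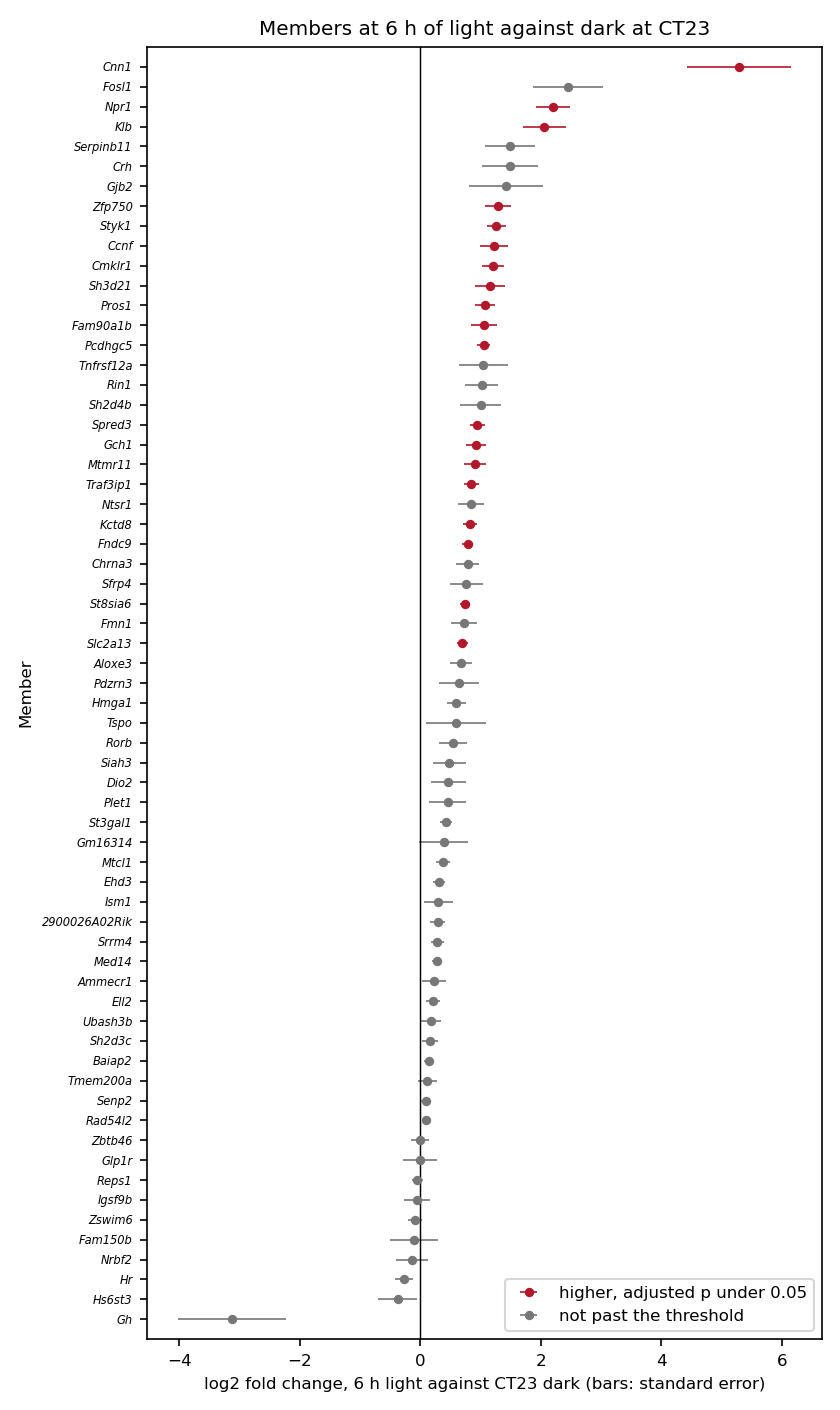
Log2 difference between 6 h of light and dark at CT23 for the late genes tested, 1 of the 65 left out (points, edgeR estimates; bars, SE; red, adjusted p under 0.05). The called genes shown run from Slc2a13 at 0.70 to Cnn1 at 5.29, and most estimates lie above 0.

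Leaving out each 6 h or CT23 library in turn, or the 0.5 h library that stood apart, kept 11 of the 20 calls in every fit. Cnn1 lost its call without CT23 replicate 1 (adjusted p = 0.0733), Zfp750 without CT23 replicate 2 (0.0643), and Klb without CT23 replicate 2 or 6 h replicate 2 (0.0813 to 0.0863). Ccnf, Fam90a1b, Gch1, Mtmr11 and Sh3d21 each lost theirs without 2 or 3 of the libraries, with adjusted p between 0.0546 and 0.214. All 6 h libraries and CT23 replicate 2 belong to label batch 2 and CT23 replicate 1 to batch 1; within batch 2 alone, 20 late genes were higher and 1, Gh, lower, with 19 of the 20 shared: Fam90a1b lost its call (adjusted p = 0.131) and Hmga1 gained one (adjusted p = 0.0458). Without the batch term, Fam90a1b (adjusted p = 0.175) and Pcdhgc5 (0.0785) were among the lost calls. The summed markers of neighbouring hypothalamic nuclei were 376.4 to 407.8 RPKM at CT23 and 478.4 to 499.9 RPKM at 6 h, and those of meningeal fibroblasts 14.1 to 14.5 and 16.7 to 21.5 RPKM. Astrocyte markers (827.9 to 846.1 and 893.9 to 921.9 RPKM) and those of ependyma and tanycytes (121.7 to 134.7 and 137.0 to 154.3 RPKM) were also higher at 6 h without overlap. Markers of microglia (143.8 to 147.2 and 131.1 to 137.9 RPKM) and of oligodendrocyte precursors (103.1 to 106.7 and 92.2 to 96.0 RPKM) were lower. No gene of these lists passed, and their part in these rises was not tested.

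After 0.5 h of light, the main fit called no late gene and few genes of any kind. This comparison used the libraries of suffix s alone, because the rule had used the other CT17 libraries. Replicates 2s of both groups were rich in meningeal markers, and the part of that tissue was not tested. Of 64 late genes tested by edgeR's quasi-likelihood test, 0 were called in either direction, where 0.371% of all 14824 genes rose and 0.027% fell; 2 were higher and 1 lower at an unadjusted p under 0.05. By DESeq2 the 1 lower gene was Slc2a13, with a log2 difference of -0.21 (adjusted p = 0.0341). Dio2 had 0.50 ± 0.13 in log2 (unadjusted p = 0.00549), with 1.88 and 2.12 RPKM in the dark and 2.45 and 3.23 RPKM after 0.5 h. With the replicate number as a block in edgeR, Dio2 was called higher (0.49 in log2, adjusted p = 0.000909). Slc2a13 was called lower in that fit (-0.21, adjusted p = 0.0371). Defb25, Fosl1 and Gh did not pass the low-count filter.

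The Npas4 experiment, also free of the rule, gave a second view of 1 h of light. In wild-type littermates 11 of 66 late genes tested rose and none fell by edgeR's quasi-likelihood test, 16.7% where 2.23% of all 15001 genes rose and 0.34% fell. In the light-pulse experiment the ratios of 1 h to CT17 dark of these 11 genes ran from 1.09 to 18.3; they come from libraries of the rule, in different label batches, and are a description only. Fosl1 rose most, by 5.80 ± 0.56 in log2 (adjusted p = 3.77e-05). It had 1 to 2 counts in the dark and 75 to 140 after light, a ratio of 58.7 per counted read (95% interval 24.9 to 182.1).

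Tnfrsf12a rose by 2.02 ± 0.26 in log2 in the wild type (adjusted p = 0.000502), from 2.46, 1.89 and 3.33 RPKM to 11.2, 8.30 and 11.0 RPKM, with no overlap. Cnn1 rose by 1.48 ± 0.28, to 0.56 to 0.91 RPKM, still well under its 3 h level in the other experiment. Dio2 rose by 1.13 ± 0.13 (adjusted p = 0.000141), from 0.79, 0.83 and 0.79 RPKM to 1.79, 1.92 and 1.48 RPKM; in the light-pulse experiment its 1 h mean was 1.09 times the dark mean of the rule. Sh3d21 (1.11 ± 0.16), Zfp750 (1.01 ± 0.16), Ccnf (0.95 ± 0.18), the Wnt antagonist gene Sfrp4 (0.95 ± 0.19), Traf3ip1 (0.66 ± 0.10), Ell2 (0.41 ± 0.08) and Fndc9 (0.36 ± 0.08) also rose. Of the 20 genes called at 6 h, 6 (30.0%) were among these 11 (54.5%): Ccnf, Cnn1, Fndc9, Sh3d21, Traf3ip1 and Zfp750. The same overlap was not counted over all genes, so it only names the shared genes. Leaving out 1 wild-type library gave 6 to 9 calls; the lowest counts, 6 and 7, came without light replicate 1 and without dark replicate 3.

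In Npas4 null mice 7 late genes rose after 1 h of light and none fell, 10.6% where 1.45% of all genes rose and 0.113% fell. With the replicate number as a block, which pairs libraries of the same number, 14 rose. Fosl1 rose by 3.25 ± 0.43 in log2, Cnn1 by 2.49 ± 0.29, Sh3d21 by 1.24 ± 0.16, Ccnf by 1.199 ± 0.18, Tnfrsf12a by 1.096 ± 0.24, Traf3ip1 by 0.58 ± 0.10 and Mtcl1 by 0.38 ± 0.07. All but Mtcl1 were also called in the wild type, which shares no library with this comparison: 6 of 7 (85.7%) and 6 of 11 (54.5%). Such sharing was not particular to the late genes. Of 31 immediate-early genes, 26 were called in the wild type and 24 in the null, and these 24 were all among the 26. The overlap over all genes was not counted. With the groups compared fitted alone, 4 were called, and Tnfrsf12a, Traf3ip1 and Mtcl1 lost their calls (adjusted p of 0.156, 0.0677 and 0.0861).

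The difference between the genotypes in the light response was called for 0 late genes by edgeR's quasi-likelihood test, where 0.0133% of all genes, 2 of 15001, had a smaller response in the null and 0.0% a larger one; DESeq2 called 0 as well. At an unadjusted p under 0.05, Cnn1 and Mtcl1 had a larger response in the null and Fosl1, Tnfrsf12a and Dio2 a smaller one. Dio2 had the lowest of these p-values, 0.00322 (adjusted p = 1.0), with a difference of -0.66 ± 0.18 in log2: in the null its level was 0.83, 0.81 and 0.77 RPKM in the dark and 1.27, 0.99 and 1.03 RPKM after light. For Fosl1 the difference was -2.55 ± 0.87, with 3 to 17 counts in null dark libraries against 1 to 2 in wild-type dark ones. For Tnfrsf12a it was -0.92 ± 0.36; its null dark libraries, at 5.29, 3.14 and 6.73 RPKM, overlapped the wild-type dark ones, and both genotypes overlapped after light.

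**Figure D4:**
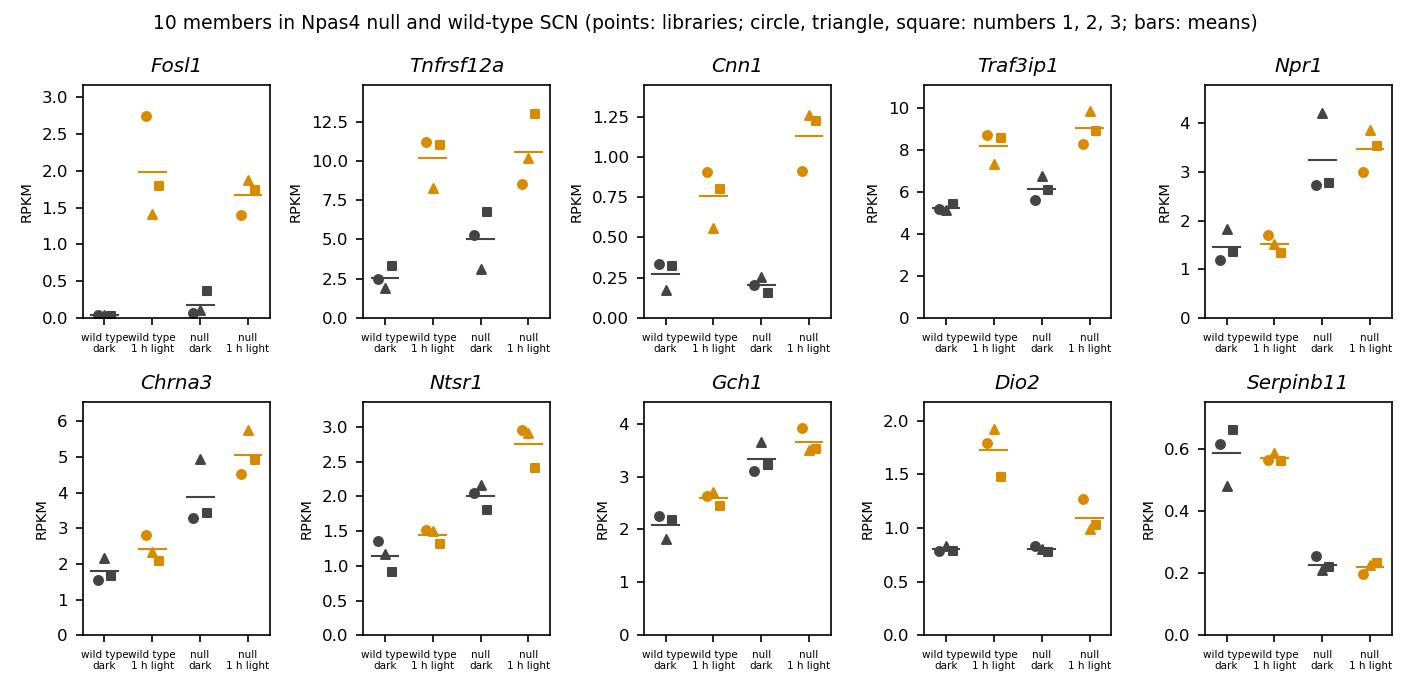
RPKM of 10 late genes in the 12 libraries of the Npas4 experiment (points; shapes, replicate numbers; bars, group means; grey, dark; orange, 1 h light), on linear axes that start at 0. Npr1, Chrna3, Ntsr1 and Gch1 lay higher in all null than in all wild-type dark libraries and Serpinb11 lower, while Dio2 after light was lower in every null library than in every wild-type one.

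Between genotypes in the dark, 6 late genes were higher in the null and 1 lower, 9.09% higher where 0.433% of all genes were higher and 0.32% lower. Npr1 was 2.74, 4.21 and 2.77 RPKM in the null and 1.19, 1.82 and 1.36 RPKM in the wild type, a log2 difference of 1.15 ± 0.21 (edgeR adjusted p = 0.0261). Chrna3 was 3.29, 4.94 and 3.44 RPKM against 1.56, 2.16 and 1.66 RPKM (1.11 ± 0.20), and Ntsr1 2.05, 2.16 and 1.80 RPKM against 1.35, 1.17 and 0.91 RPKM (0.82 ± 0.15). In none of these 3 receptor genes did the genotypes overlap. Gch1 (0.69 ± 0.11), Spred3 (0.58 ± 0.10) and Fndc9 (0.42 ± 0.08) were also higher, and Serpinb11 was lower, by -1.35 ± 0.20, at 0.26, 0.21 and 0.22 RPKM against 0.62, 0.48 and 0.66 RPKM.

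After light, Npr1 (1.199 ± 0.21 in log2), Chrna3 (1.08 ± 0.19), Ntsr1 (0.94 ± 0.15) and Fndc9 (0.39 ± 0.08) were higher in the null, and Serpinb11 (-1.36 ± 0.20) and Dio2 (-0.65 ± 0.12) lower. These were 4 and 2 of 66 genes, 6.06% higher where 0.273% of all genes were higher and 0.193% lower. The 4 higher genes were all among the 6 higher in the dark. Npr1, Gch1, Spred3 and Fndc9 thus rose at 6 h of light and were higher in the null in the dark. Neither overlap was counted over all genes, so both only name the shared genes.

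These genotype calls were fragile. In the dark, 12 late genes were higher with the replicate block but 0, and 0 lower, with the 2 dark groups fitted alone (adjusted p of 0.111 to 0.233). Leaving out 1 library gave 1 to 4 higher genes in the dark, the lowest without wild-type dark replicate 3 (1), wild-type dark replicate 2 (2) and null dark replicate 2 (3), and 0 or 1 after light for each of the 6 libraries left out. Every such fit kept the direction of each gene. The summed SCN markers were 1786.8 to 2260.3 RPKM in null dark against 1088.8 to 1246.5 RPKM in wild-type dark libraries, and 1836.4 to 1935.0 against 1070.3 to 1901.1 RPKM after light. Of the 11 SCN markers 3 were higher in the null in both, Nms, Prok2 and Rgs16. Avp and Vip, which did not pass, made up 46.0% and 27.7% of the mean sum in null dark libraries. Grp, Six6, Lhx1 and Syt10 had lower means in null dark than in wild-type dark libraries, and the other markers higher ones. Syt10 was at 87.5 against 105.5 RPKM and Vipr2 at 50.9 against 50.8 RPKM. The 5 blood markers also separated the genotypes, at 235.0 to 301.2 RPKM in null dark against 353.2 to 1996.7 RPKM in wild-type dark libraries and 145.5 to 229.9 against 293.1 to 418.7 RPKM after light, with wild-type dark replicate 1 far above the rest; none of the 5 passed. General neuronal markers were 435.4 to 443.0 RPKM in null and 414.9 to 431.7 RPKM in wild-type libraries after light. The part of these cells in the late genes' differences was not tested.

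Fixed lists that hold a late gene placed 4 of them. Of 48 genes of G-protein and cyclic nucleotide signalling, 2 rose at 6 h, Npr1 and Rgs20, and 1 fell, Prkg2, with a list median of -0.14 in log2. Of 23 clock genes 4 rose at 6 h (Fbxl21, Per1, Per2 and Rora; median 0.11), and Rorb did not pass. Of 31 immediate-early genes 3 rose at 6 h (Gadd45g, Ier2 and Junb; median 0.27), whereas 26 had risen after 1 h in the wild type, Fosl1 among them (median 2.81). Of 28 late-response neuronal genes tested, which include Crh, 3 rose at 6 h (Nptx1, Pcsk1 and Vgf; median 0.26). The median over all genes at 6 h was 0.01.

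H3K27ac, a histone mark of active promoters and enhancers, was compared between the peak list of dark SCN (38447 peaks) and that of SCN after 1 h of light (40403 peaks), with 1 library each and therefore no test. A peak counted as listed in 1 lighting only where it shared no base with a peak of the other list. In the late genes and 10 kb to either side, 111 peaks stood only in the light list and 42 only in the dark list, so that 72.5% were light peaks. At the 12287 genes of 1 RPKM or more at 3 h these were 13074 and 11731, 52.7%. Light-only peaks lay at 40 of 67 late genes (59.7%) against 45.1% of those genes, and dark-only peaks at 23 (34.3%) against 43.9%. Late genes were longer, with a median of 34.7 kb against 26.0 kb, and windows can hold peaks of neighbouring genes.

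The genes with most light-only peaks were Pcdhgc5, with 10 and 3 dark-only peaks, Slc2a13 (9 and 0), Srrm4 (9 and 1), Cmklr1 (7 and 1), and Pros1, St8sia6 and Zfp750 (5 and 0 each). At Pros1 all 5 lay inside the gene within chr16:62872209-62874558, with fold enrichments of 4.01 to 7.84 given by the authors' peak caller. At Spred3 a light-only peak at chr7:29168768-29169499 had a fold enrichment of 8.72 and lay within the gene. No late gene had more than 5 dark-only peaks, and 2900026A02Rik had 5 of each kind. Other late genes had few such peaks: Dio2 had neither kind, Klb 1 light-only and 0 dark-only, Chrna3 3 and 1, and Npr1 1 and 2.

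**Figure D5:**
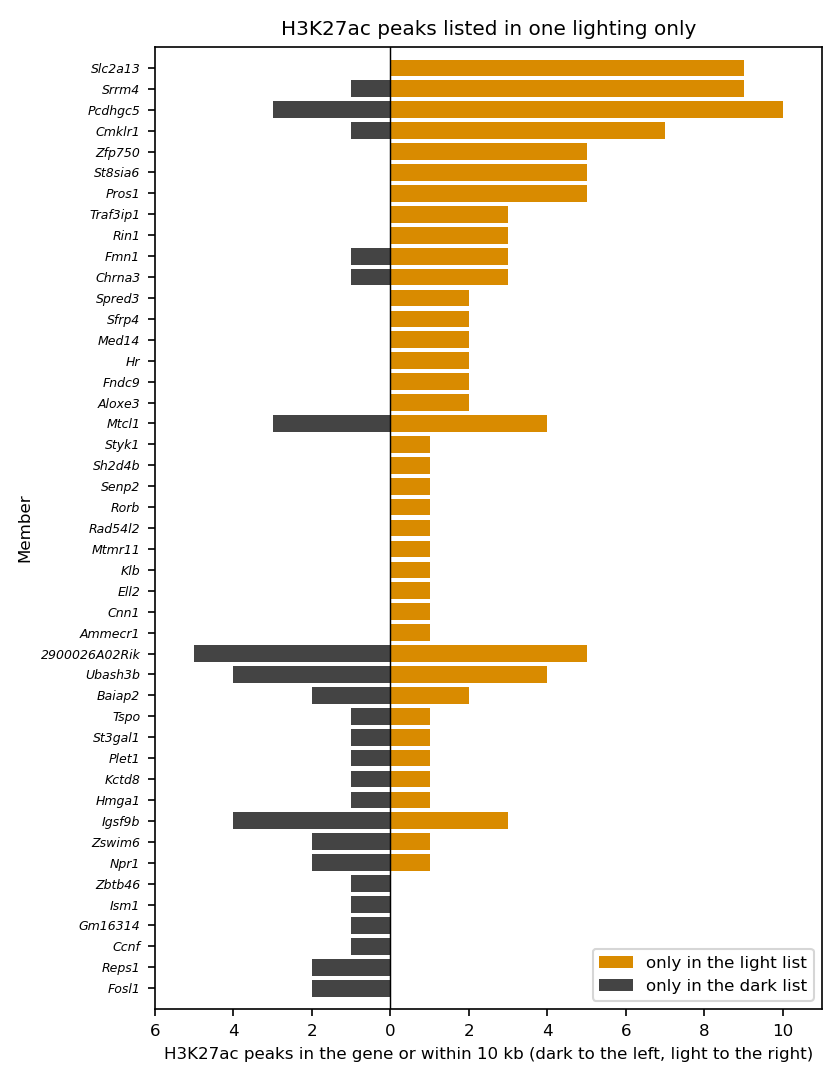
Number of H3K27ac peaks listed only after 1 h of light (orange, right) or only in the dark (grey, left) within each late gene or 10 kb to either side, for the late genes with at least 1 such peak, 1 gene left out. Slc2a13, Srrm4 and Cmklr1 extend far to the right with 9, 9 and 7 light-only peaks and at most 1 dark-only peak; 29 of all 67 genes had more light-only and 9 more dark-only peaks.

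Promoter sequence was at hand for 50 of the 67 late genes (74.6%), too few for a check over the whole set, so counts of starts and motifs cover these 50 alone. They were taken from RefSeq on GRCm38.p6, the mm10 assembly, as 250 bases before to 50 bases after a start. An H3K27ac peak lay within 1 kb of a start at 20 of the 50 in the dark and 25 after light, and an H3K4me3 peak, the mark of active starts, at 45 and 44. Over the 9863 matched genes of 1 RPKM or more at 3 h, the shares were 78.1% and 76.8% for H3K27ac, against 40% and 50% of the 50, and 96.4% and 95.7% for H3K4me3, against 90% and 88%. H3K27ac peaks with a -log10 q-value of 5 or more lay there at 18 of the 50 in the dark and 20 after light (72.9% and 65.2% of the 9863 genes). Cnn1, Plet1, Serpinb11, Sh2d4b and Zbtb46 had no peak of either mark at their start in any list. Spred3 had an H3K27ac peak listed there only after light, as did Ammecr1, Cmklr1, Ell2, Fmn1, Rin1 and Slc2a13. Kctd8 and Siah3 had one listed only in the dark. Some of these peaks were weak, with fold enrichments of 3.55 at Ell2, 4.01 at Fmn1 and 4.15 at Kctd8. A peak missing from a list of 1 library does not show that the mark was absent. The full cyclic AMP response element (CRE), TGACGTCA, to which CREB binds, was searched on both strands. It stood in 4 of the 50 promoters, those of Dio2, Ell2, Kctd8 and Senp2, and in 1.79% of all 32851 RefSeq promoters (3.62% of those of genes of 1 RPKM or more at 3 h). The AP-1 motif (TGACTCA or TGAGTCA) stood in the promoter of Zbtb46 alone (5.20% of all promoters), the E-box CACGTG in those of Cmklr1 and Nrbf2 (7.15%), and the D-box TTATGTAA (0.938%) and the CArG box of the serum response element (1.63%) in none.

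The stretches before the starts of the 4 genes with a CRE are shown, 5′ to 3′ on the gene's strand, with the element in capitals; it begins 95 bases before the start in Dio2 (chr12:90739039-90739288, minus strand), 198 in Ell2 (chr13:75707234-75707483, plus), 28 in Kctd8 (chr5:69341710-69341959, minus) and 75 in Senp2 (chr16:22009234-22009431, plus). Positions are counted from the start of the RefSeq promoter entry; for Senp2 the annotated gene begins upstream of that start, and the stretch shown ends where the gene begins. These genes differ in course: Kctd8 rose at 6 h, Dio2 and Ell2 rose after 1 h in the wild type, and Senp2 was 31.6 RPKM at 3 h and was called after 1 h of light in both genotypes by DESeq2 and with the replicate block, but by edgeR without the block in no comparison.
Dio2: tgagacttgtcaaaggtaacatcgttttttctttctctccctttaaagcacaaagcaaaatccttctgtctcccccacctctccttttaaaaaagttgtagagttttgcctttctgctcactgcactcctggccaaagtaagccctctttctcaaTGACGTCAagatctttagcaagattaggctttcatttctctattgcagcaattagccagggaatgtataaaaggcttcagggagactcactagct
Ell2: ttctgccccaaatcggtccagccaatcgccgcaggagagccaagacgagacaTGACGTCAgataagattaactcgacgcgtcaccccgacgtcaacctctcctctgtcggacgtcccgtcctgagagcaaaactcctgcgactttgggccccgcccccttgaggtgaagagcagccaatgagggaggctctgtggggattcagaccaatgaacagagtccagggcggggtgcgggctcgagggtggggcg
Kctd8: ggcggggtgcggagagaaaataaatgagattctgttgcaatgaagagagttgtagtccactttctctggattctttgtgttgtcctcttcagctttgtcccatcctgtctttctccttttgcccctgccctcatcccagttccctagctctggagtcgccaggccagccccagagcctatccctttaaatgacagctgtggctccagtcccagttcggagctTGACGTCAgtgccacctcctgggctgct
Senp2: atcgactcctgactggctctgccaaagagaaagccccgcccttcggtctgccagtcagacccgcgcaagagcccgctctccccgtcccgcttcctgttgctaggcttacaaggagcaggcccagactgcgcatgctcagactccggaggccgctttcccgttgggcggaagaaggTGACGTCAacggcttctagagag

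Traf3ip1 is shown because a light-only H3K27ac peak, at chr1:91493242-91494519 with a fold enrichment of 7.15, runs into the stretch before its start. Of the 172 bases at chr1:91494418-91494589 (plus strand), the 102 in capitals are covered by that peak. Traf3ip1 was 3.89 to 4.77 RPKM at CT17, 5.82 and 5.99 RPKM at 1 h and 8.41 and 9.11 RPKM at 3 h, and rose at 6 h and after 1 h in both genotypes. A dark peak also lay within 1 kb of its start, with a fold enrichment of 5.43.
Traf3ip1: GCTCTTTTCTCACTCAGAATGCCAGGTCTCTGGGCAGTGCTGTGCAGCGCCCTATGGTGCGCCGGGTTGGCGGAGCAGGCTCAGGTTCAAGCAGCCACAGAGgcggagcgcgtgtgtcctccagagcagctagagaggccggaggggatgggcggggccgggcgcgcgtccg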

How the data were processed

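Bulk RNA-seq, and ChIP-seq peak lists, of mouse SCN were used; single-nucleus samples are not used here. The deposited tables hold raw read counts of each gene, whole numbers made by the authors, and RPKM of the same libraries; the RPKM equal counts over gene length and library total. Per the submitters' processing notes, STAR, HTSeq 0.9.1, BWA 0.7.16a, MACS2 2.1.1 and the build mm10 were used; counting options, strand use among them, are not stated there, so overlapping genes are uncertain. In the deposited narrowPeak lists each peak has a linear fold enrichment (a ratio to background) and a -log10 q-value.

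Counts were tested with edgeR 4.0.16 (quasi-likelihood, TMM, filterByExpr) over all genes, with Benjamini-Hochberg adjustment and calls at 0.05. The light-pulse fit held all 16 libraries and the label batch as a term; the 0.5 h comparison held the 4 libraries of suffix s; the Npas4 fit held 12 libraries in 4 groups. Calls were also checked with DESeq2 1.42.0, and the code was tested on simulated data. Libraries of the same number in the Npas4 experiment deviated together. Correlations were 0.222 to 0.527 in the wild type, 0.344 to 0.716 in the null and 0.479 to 0.758 in the dark. Between genotypes after light the correlation was 0.029 for number 1. The main Npas4 fit, which gave the main calls and adjusted p-values, took no account of the number. A fit with the number as a block, over all 12 libraries and every comparison, was an alternative.

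The late genes, the gene lists, the roles and the tests were chosen with earlier results of these data known. Genes are named by rule: the 12 with the highest 3 h ratio, all called genes, the 10 with the highest 3 h RPKM, those at the threshold, in a list or most like the median profile; others serve to show a contrast. A single late gene is counted but not reported here by name. The gene window of 10 kb, and the fit without the 0.5 h library that stood apart, were chosen after seeing the data.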

Additional observations from a re-analysis of the deposited data

Results flagged for a closer look

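Of 134 groups of 4 libraries examined (67 late genes at CT17 and at 0.5 h), 11 held 1 library far from the other 3, where chance flags about 1 in 20.

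At 0.5 h, replicate 2 was the distant library in 5 of 7 cases. Cnn1 was 2.26 RPKM there against 0.25 to 0.35 RPKM in the others, Fam90a1b 1.96 RPKM against 1.21 to 1.31 RPKM, and Tmem200a 3.68 RPKM against 2.63 to 2.73 RPKM. Igsf9b was low in it, at 2.502 RPKM against 4.09 to 4.11 RPKM, as was Sh2d4b, at 0.75 RPKM against 1.33 to 1.395 RPKM. This is the library with the meningeal marker sum of 177.8 RPKM; the part of that tissue in these values was not tested. Replicate 1s was distant for Sh2d3c, at 4.02 RPKM against 3.28 to 3.37 RPKM, and for Serpinb11, at 0.35 RPKM against 0.62 to 0.68 RPKM.

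At CT17, Gh was 0.44 RPKM in replicate 1 against 0.08 to 0.12 RPKM. The other 3 were small departures in tight groups: Fndc9 was 20.2 RPKM in replicate 1s against 21.7 to 22.0 RPKM, Sh3d21 1.27 RPKM in replicate 2 against 1.37 to 1.39 RPKM, and Slc2a13 22.2 RPKM in replicate 2 against 22.9 to 23.02 RPKM.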

How the results depend on the processing

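The number of late genes was 59 with all 4 CT17 libraries in the rule (57 shared), 50 with a floor of 2 RPKM, 126 with a ratio of 1.3 and 28 with 1.6. At 6 h, 19 to 27 late genes rose under the 9 other settings (27 with the 4 libraries alone), and 14 to 18 when a compared library was left out; 1 was lower within label batch 2, and 0 to 1 with a library left out. At 0.5 h, 1 was higher and 1 lower with the replicate block, and 1 lower by DESeq2. In the wild type at 1 h, 14 rose with the block and 6 to 9 without a library. In the null at 1 h, 11 rose by DESeq2, 14 with the block and 4 with the groups compared alone. Between genotypes in the dark, 12 were higher with the block and 0 higher and 0 lower with the groups alone; without a library 1 to 4 were higher and 0 to 1 lower. After light, 8 were higher by DESeq2, 10 with the block and 8 with the groups alone, where 1 was lower; without a library 0 to 1 were higher and 1 to 2 lower. RLE scaling and no low-count filter moved no count by over 1.5 times. No called gene reversed its direction in the comparison that called it; other genes were not followed. The cause of these moves was not tested. With an overlap of 0.5 of a peak needed for a shared peak, 61.2% of late genes had a light-only and 40.3% a dark-only peak, against 55.5% and 53.1% of all genes compared, so the light-only difference was smaller. Alternatives for peaks at starts were not read over the whole set, as only 74.6% of starts were matched. In the light-pulse experiment the libraries share only a number, and the block gave 23 rises at 6 h.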
